A study of Homo sapiens with 33 samples.

Results

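The cytosolic ribosome is built from a large (60S) and a small (40S) subunit, and its structural proteins carry the gene names RPL and RPS. The members described here are the spots of a cDNA membrane array that the platform annotation gives 1 gene symbol of that form. There were 15 such spots for 12 genes among 34560 spots, of which 18025 have 1 symbol, 858 several and 15677 none. The large subunit was represented by RPL22, RPL27A (2 spots), RPL31, RPL34 and RPL35A. RPL22L1 and RPL7L1, whose symbols have the same form, are paralogs of RPL22 and RPL7. The small subunit was represented by RPS14, RPS15A (2 spots), RPS23 (2 spots), RPS28 and RPS3. The acidic stalk proteins RPLP0, RPLP1 and RPLP2 had no spot with a symbol of their own in the annotation used, nor did RPSA, FAU, RACK1 and RPL36AL.

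Ribosomal protein mRNAs are abundant in growing cells. In most of them transcription starts at a C within a run of pyrimidines, the 5' terminal oligopyrimidine (TOP) tract, through which the kinase mTOR and the binding protein LARP1 set how well the mRNA is translated. Tumour necrosis factor (TNF) acts mainly through NF-kB, and RPS3 has been described as a partner of the NF-kB subunit p65. An array of mRNA measures the amount of a transcript and not its translation.

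The study used THP-1, a human monocytic leukaemia line, and CaCo-2, a human colorectal adenocarcinoma line that can take on features of enterocytes. Each line was left unstimulated or was given TNF at 5 ng/ml for 60 min, and radioactively labelled cDNA made from its mRNA was hybridised to the membrane. Counting arrays whose readings were deposited in more than 1 form once, 22 arrays were compared. For THP-1 there were 5 without and 7 with TNF, and for CaCo-2 5 without and 5 with it. No label says that each array had a culture of its own, and p-values thus reflect only how much arrays of a group vary, and part or all of that may be technical. Deposited intensities have no stated unit, 1 value per spot and array.

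The start sites of the members were searched for pyrimidine runs. Of the 12 genes, 11 had an entry in the RefSeq promoter table (GRCh38.p14), RPS15A being the one without. Each sequence below runs from 15 bases before the annotated start to 15 bases from it, on the gene's own strand, and capitals mark the longest unbroken run of C and T in those 30 bases. RPL34 has the longest run and RPL7L1 the shortest, RPS14 is the member that differed between the lines, and RPL22 and RPL22L1 are a paralogous pair.
RPS14, chr5:150449725-150449754, minus strand: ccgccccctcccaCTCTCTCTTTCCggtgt
RPL34, chr4:108620561-108620590, plus strand: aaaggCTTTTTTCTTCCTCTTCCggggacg
RPL35A, chr3:197950175-197950204, plus strand: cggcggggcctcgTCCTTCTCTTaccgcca
RPS3, chr11:75399503-75399532, plus strand: gcccgcgagccaCTTCCTTTCCTTTCagcg
RPL22, chr1:6199581-6199610, minus strand: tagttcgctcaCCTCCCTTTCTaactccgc
RPL22L1, chr3:170870181-170870210, minus strand: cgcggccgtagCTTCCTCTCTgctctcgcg
RPL7L1, chr6:42879601-42879630, plus strand: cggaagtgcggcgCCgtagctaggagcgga

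A run of at least 9 pyrimidines, anywhere in the window, was found in 10 of the 11 genes, and in 3237 of 35116 entries of the whole table, 9.22%. The median longest run was 12 bases in the members and 4 bases over the table. In 9 of the 10 the run spanned the annotated start, while that of RPS28 began after it. RPL7L1 was the exception, with a longest run of 2 bases against 18 in RPL34. Among the 10 is the paralog RPL22L1. A run of C and T is a description of the letters in the window, and start sites in the annotation can differ from those used in these cells.

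Readings at exactly 0 divided the members. Of 330 member readings, 224 were above 0, or 67.9%, against 65.6% over all spots. Neither share says that a transcript is present or absent, as no source used here gives the meaning of a 0. The 10 spots of fibroblast and endothelial genes were also above 0 on some arrays, to an extent that varied with the spot. COL1A1 was above 0 on 12 of 12 THP-1 and 9 of 10 CaCo-2 arrays. PECAM1 at spot 38G13 was above 0 on all arrays of both lines, but at spot 53L15 on 4 and 1. THY1 at spot 28G01 was above 0 on 3 and 4. By group the members' share was 68.0% without and 76.2% with TNF in THP-1, and 58.7% without and 65.3% with TNF in CaCo-2. Over all spots the same shares lay between 64.8% and 66.6%. In bulk RNA, fewer cells carrying a transcript and less of it per cell cannot be told apart.

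Above 0 on all 22 arrays were 8 member spots, namely RPL22, RPL22L1, RPL7L1, RPS14, RPS28 and 1 of the 2 spots each of RPL27A (86I05), RPS15A (17L12) and RPS23 (28B16). They make up 53.3% of the members, whereas 18.5% of all spots were above 0 on every array. Their median intensities ran from 0.141 for RPS23 28B16 to 1.20 for RPL7L1, while the median of the positive spots of an array lay between 0.162 and 0.229. These are intensities of different cDNA spots and give no order of expression between genes.

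The 3 genes with 2 spots each gave readings that depended on the spot. RPS15A, a small-subunit protein, was above 0 on 22 arrays at 17L12 and on 7 at 84P21. RPS23, which lies near the decoding centre, was above 0 on 22 arrays at 28B16 and on 3 at 31P04. RPL27A, a large-subunit protein, was above 0 on 22 arrays at 86I05 and on 13 at 27B11. Where both RPL27A spots were measured they also sat at different intensities, 27B11 between 0.247 and 0.319 and 86I05 between 0.483 and 0.720. Ribosomal protein genes have many processed pseudogenes, and which part of the transcript or which near-identical copy a cDNA spot binds was not tested.

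**Figure D1:**
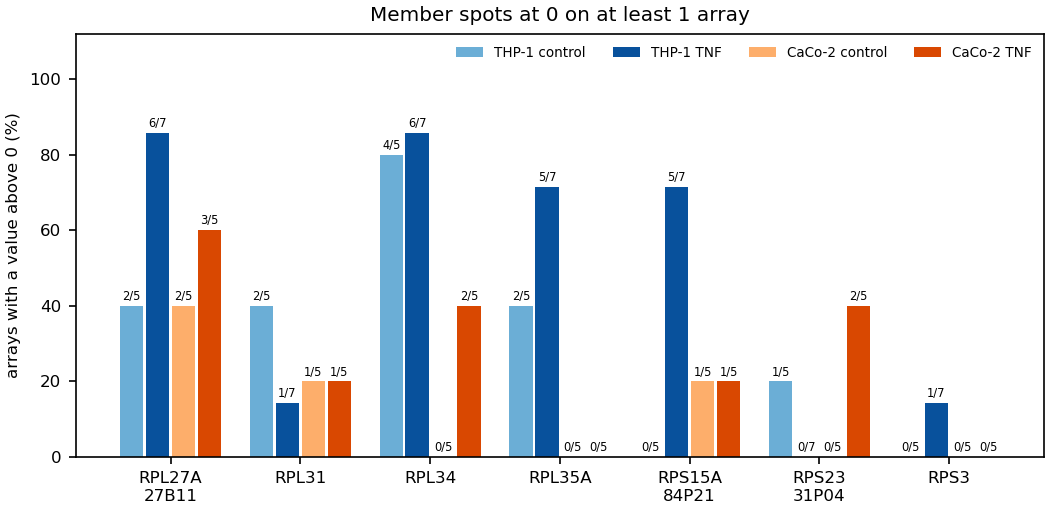
Share of arrays with a deposited value above 0 (vertical axis, %) for the 7 member spots that were at 0 on at least 1 array, with 1 bar per group and the number of arrays above 0 over the number of arrays printed on it. RPL34 was above 0 on 4 of 5 and 6 of 7 THP-1 arrays against 0 of 5 and 2 of 5 CaCo-2 arrays, RPL35A on 2 of 5 and 5 of 7 against 0 of 5 and 0 of 5, and RPS15A 84P21 on 5 of 7 THP-1 TNF arrays and at most 1 array of any other group.

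RPL34 and RPL35A, both of the large subunit, were measured mostly in THP-1. RPL34 read 0.168, 0.182, 0, 0.173 and 0.178 on the 5 THP-1 control arrays, and 0 on all 5 CaCo-2 control arrays. On THP-1 TNF arrays it ranged from 0 to 0.188 with a median of 0.173, and on CaCo-2 TNF arrays it read 0, 0.215, 0, 0.168 and 0. In the summed form, at about 3 times the scale, CaCo-2 control replicates 2, 3 and 4 had values for RPL34 of 0.171, 0.149 and 0.157. Where the single value was above 0 as well, the sum was 0.499 and 0.364 on THP-1 control replicates 1 and 2 and 0.489 on CaCo-2 TNF replicate 5. Thus 3 of the 5 CaCo-2 control zeros were not 0 in both deposited forms. CaCo-2 control replicate 1 was 0 in both, and CaCo-2 control replicate 5 had no summed column. In the values used the lines differed in how often the spot gave a value, with 10 of 12 THP-1 arrays above 0 against 2 of 10 CaCo-2 arrays. The positive readings ran from 0.164 to 0.188 in THP-1. THP-1 control replicate 3, which was at 0, was deposited only as a sum. Fisher's exact test over arrays gave p = 0.00828, and 0.264 after Benjamini-Hochberg adjustment over 27546 spots, so the difference missed the threshold of 0.05.

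RPL35A, one of the genes mutated in Diamond-Blackfan anaemia, was at 0 on all 10 CaCo-2 arrays in the single form. The summed form, at about 3 times the scale, had 0.246 for CaCo-2 control replicate 1 and 0.243 for CaCo-2 TNF replicate 1. Its values for THP-1 control replicate 2 and THP-1 TNF replicate 6 were 0.797 and 0.775. In THP-1 it read 0, 0.272, 0, 0 and 0.269 on the control arrays, and from 0 to 0.268 with a median of 0.261 on the TNF arrays, 5 of 7 of them above 0. THP-1 arrays fell into zeros and values of 0.257 to 0.272, with nothing between. The exact test of 7 of 12 against 0 of 10 arrays gave p = 0.00535 (adjusted p 0.248). Between the lines, 0.356% of the spots tested passed the adjusted threshold in this exact test and 8.61% had an unadjusted p under 0.05. No member passed the adjusted threshold and 2 of the 7 testable members were under the unadjusted one.

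RPS15A 84P21 was at 0 on all 5 THP-1 control arrays and above 0, between 0.171 and 0.186, on 5 of 7 THP-1 TNF arrays. Of these control arrays only replicates 1 and 2 had a further summed column, and in both the sum was positive. Replicate 3, deposited only as a sum, was at 0. Its exact p of 0.0278 became 1.00 after adjustment over 22729 spots. No spot of the membrane, 0%, passed the adjusted threshold for THP-1 TNF against control and 1.49% had an unadjusted p under 0.05. The other RPS15A spot, 17L12, differed by -0.01 ± 0.04 (SE) on the log2 scale in the same comparison. In CaCo-2 84P21 was above 0 on 1 of 5 control and 1 of 5 TNF arrays. No member was under an unadjusted p of 0.05 for CaCo-2 TNF against control in this exact test, where 1.19% of all spots were and 0% passed after adjustment.

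The other incompletely measured spots missed the threshold of the exact test, with adjusted p of 0.949 or above between lines and 1.00 after TNF. RPL27A 27B11 was above 0 on 2 of 5 control and 6 of 7 TNF arrays of THP-1, and on 2 of 5 control and 3 of 5 TNF arrays of CaCo-2. RPL31, whose protein sits by the exit of the peptide tunnel, was above 0 on 5 arrays spread over all 4 groups. RPS23 31P04 was above 0 on 1 THP-1 control and 2 CaCo-2 TNF arrays. RPS3, which lines the mRNA entry site of the small subunit, gave a value on 1 of 22 arrays, 0.147 on THP-1 TNF replicate 8, so its response to TNF could not be measured here.

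For 9 of the arrays used, a further deposited column at about 3 times the scale carries the same readings as a sum. For the members above 0 on every array, the sum was 2.67 to 3.36 times the single value, with a median of 2.93. For the others the sum could be positive where the single value was 0. This held for RPL34 in 3 of 9 pairs, all CaCo-2 controls, and for RPL35A in 2, both CaCo-2. It held for RPS15A 84P21 in 4 pairs, THP-1 control replicates 1 and 2 (sums of 0.169 and 0.168) and 2 CaCo-2 arrays, and for RPL31 in 3. These zeros are among those that set the contrasts in arrays above 0 described here. A 0 in the values used is thus not always a 0 in every component reading.

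RPS14 was the only member called between the lines with the settings used, between TNF arrays and averaged over conditions but not between controls. Its protein lies on the platform of the small subunit, and loss of 1 gene copy underlies the anaemia of the 5q- syndrome. The THP-1 control arrays read 0.183, 0.201, 0.186, 0.181 and 0.199, and the CaCo-2 controls 0.227, 0.206, 0.187, 0.215 and 0.160. THP-1 TNF arrays lay between 0.177 and 0.189 with a median of 0.183, and CaCo-2 TNF arrays read 0.223, 0.234, 0.239, 0.216 and 0.165. In deposited values the CaCo-2 arrays were the higher ones except for 0.160, 0.165 and the overlapping 0.187. The values of 0.160 (control replicate 5) and 0.165 (TNF replicate 6) come from the 2 arrays described below as apart. Readings of 0.227, 0.223 and 0.234 come from CaCo-2 control replicate 1, TNF replicate 1 and TNF replicate 2. Their positive spots had medians of 0.228, 0.227 and 0.229, against 0.194 to 0.209 on the THP-1 arrays. The CaCo-2 arrays that read 0.206, 0.215, 0.239 and 0.216 had medians of 0.181 to 0.192.

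After quantile normalization RPS14 was higher on every CaCo-2 array than on any THP-1 array. How many of all spots part the lines in this way was not counted. Mean log2 intensities were -2.27 ± 0.09 in unstimulated CaCo-2 cells (SD, n = 5) and -2.23 ± 0.12 after TNF (n = 5), against -2.44 ± 0.06 in unstimulated THP-1 cells (n = 5) and -2.46 ± 0.06 after TNF (n = 7). The CaCo-2 to THP-1 difference was 0.23 ± 0.05 (SE) on the log2 scale between TNF arrays, 1.17-fold, with a limma adjusted p of 0.0212. Between controls it was 0.16 ± 0.04, 1.12-fold, with an adjusted p of 0.104, which missed the threshold. Averaged over both conditions it was 0.20 ± 0.03, 1.15-fold, with a 95% interval of 0.128 to 0.265 and an adjusted p of 0.000618. Control and TNF arrays are disjoint sets, and the direction was the same in both, as it was for 78.0% of all spots. Some CaCo-2 arrays of the 2 sets deviated together, with correlations up to 0.73.

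The RPS14 calls depended on the processing. Without normalization the difference between controls was 0.06 with an adjusted p of 0.828, that between TNF arrays 0.22 with 0.292, and the averaged one 0.14 with 0.309. The call between TNF arrays was also lost with 0 kept at the floor (adjusted p 0.118), with excluded spots at the floor (0.122) and with paired columns averaged (0.0737). Without THP-1 TNF replicate 1 the TNF comparison gave 0.23 and an adjusted p of 0.0515, and without CaCo-2 control replicate 1 the control comparison gave 0.18 and an adjusted p of 0.0469.

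**Figure D2:**
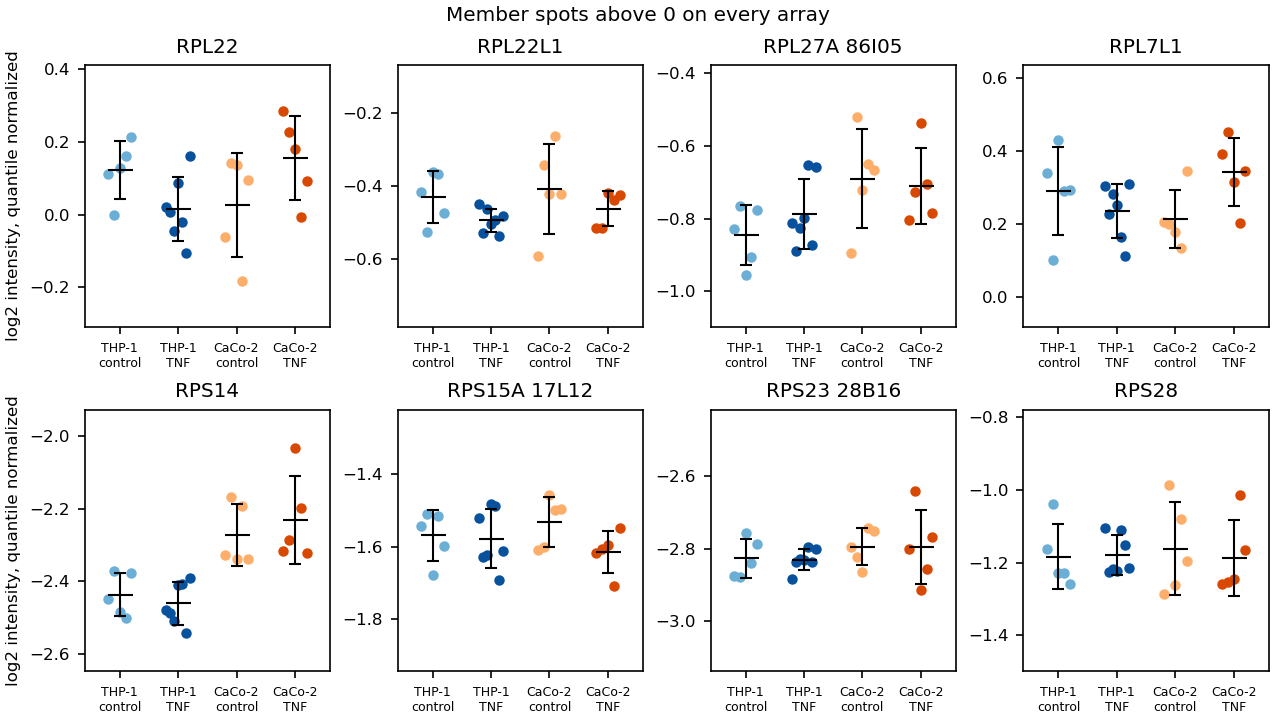
Quantile normalized log2 intensity (vertical axis) of the 8 member spots above 0 on every array, by group, with 1 point per array and bars for the mean ± SD. For RPS14 all CaCo-2 points lie above all THP-1 points, whereas the groups overlap in the other 7 panels, each of which has its own range of equal height in log2 units.

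The remaining members did not pass the adjusted threshold in any comparison of lines. RPL27A 86I05 came nearest. It read 0.577, 0.595, 0.518, 0.533 and 0.598 on THP-1 control arrays, and 0.557, 0.700, 0.622, 0.659 and 0.528 on CaCo-2 control arrays. THP-1 TNF arrays lay between 0.534 and 0.651 with a median of 0.583, and CaCo-2 TNF arrays read 0.602, 0.638, 0.720, 0.631 and 0.483. The groups overlapped, with the highest values in CaCo-2. The difference, CaCo-2 minus THP-1, was 0.16 ± 0.06 (SE, log2) in controls (adjusted p 0.246) and 0.08 ± 0.05 in TNF arrays (adjusted p 0.412). It was 0.12 ± 0.04 averaged over conditions (95% interval 0.027 to 0.205, adjusted p 0.0632). The averaged difference had an adjusted p of 0.00783 with array weights, and was 0.08 with an adjusted p of 0.712 without normalization.

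Between control arrays, 8 members could be tested, 6 higher and 2 lower in CaCo-2, with a median log2 difference of 0.03 against 0.02 over all 19420 spots. Without normalization RPL22L1, RPS15A 17L12, RPS23 28B16 and RPS28 changed sign, which left 2 higher and 6 lower with a median of -0.0511. No member was called, where 0.386% of all spots were called and 17.7% had an unadjusted p under 0.05, and RPS14 and RPL27A 86I05 were the 2 members under that unadjusted level. The lower ones, RPL22 at -0.10 ± 0.07 and RPL7L1 at -0.08 ± 0.06, had adjusted p of 0.463 and 0.506. RPS15A 17L12 was at 0.04 ± 0.04.

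Between TNF arrays, 9 members were tested, 7 higher and 2 lower in CaCo-2, with a median of 0.03, as over all 20750 spots. Without normalization 5 were higher and 4 lower. RPS14 was the 1 member called, where 2.14% of all spots were called. RPL22 (0.14 ± 0.05, adjusted p 0.161) and RPL7L1 (0.11 ± 0.05, adjusted p 0.220) were also under an unadjusted p of 0.05, as were 20.4% of all spots. RPS15A 17L12 at -0.04 ± 0.04 and RPS28 at -0.01 ± 0.04 were the lower ones. RPL27A 27B11, tested in this comparison alone, stood at 0.02 ± 0.02.

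Averaged over control and TNF arrays, 1 of 8 members was called, where 17.7% of 16931 spots were called in that fit. Under an unadjusted p of 0.05 were 2 of 8, where 34.6% of all spots were. With 8 members these counts cannot be told apart from the shares over all spots. The members' median difference of 0.02 lay beside 0.03 over all spots. RPS15A 17L12 had an averaged difference of 0.00 ± 0.03 with an interval from -0.061 to 0.061. RPS28, at the mRNA exit of the small subunit, had 0.01 ± 0.04 with an interval from -0.07 to 0.08, and RPS23 28B16 0.03 ± 0.03 with an interval from -0.02 to 0.09. Without normalization 4 of the 8 averaged differences changed sign, to -0.01 for RPL22, -0.01 for RPL22L1, -0.02 for RPL7L1 and -0.04 for RPS28. The line difference had the same sign in controls and in TNF arrays for 4 of the 8 members, RPS14, RPL27A 86I05, RPL22L1 and RPS23 28B16, and for 78.0% of all spots. It reached an unadjusted p under 0.05 in both for RPS14, and for 9.59% of all spots.

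**Figure D3:**
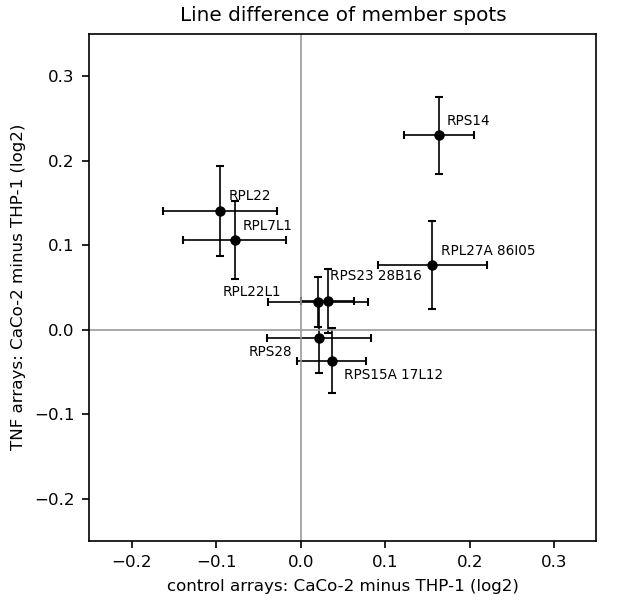
Log2 difference, CaCo-2 minus THP-1, of the 8 member spots measured on every array, with control arrays on the horizontal axis, TNF arrays on the vertical axis and bars of ± 1 SE. RPS14 lies far out in both directions at 0.16 and 0.23, whereas RPL22 and RPL7L1 lie below 0 in controls and above 0 in TNF arrays.

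After 60 min of TNF no member was called in either line. In CaCo-2, 8 members were tested, 3 higher and 5 lower, with a median log2 difference of -0.01 against 0.01 over all 19479 spots, and the differences ran from -0.08 to 0.13. Without normalization 5 were higher and 3 lower, with a median of 0.0513. By limma, 0% of all spots were called and 2.46% had an unadjusted p under 0.05, RPL7L1 being the 1 member among them. In THP-1, 9 members were tested, 3 higher and 6 lower, with a median of -0.01 against 0.00 over all 21989 spots and a range from -0.11 to 0.06. Without normalization 1 was higher and 8 were lower. There too 0% were called, and 2.47% had an unadjusted p under 0.05, RPL22 being the 1 member.

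RPL7L1, the paralog of RPL7, read 1.14, 1.19, 1.17, 1.13 and 1.16 on CaCo-2 control arrays and 1.24, 1.29, 1.31, 1.19 and 1.13 on CaCo-2 TNF arrays. The TNF arrays held the 3 highest values and the ranges overlapped. The difference was 0.13 ± 0.05 (log2, SE), with an unadjusted p of 0.0308 and an adjusted p of 1.00. On THP-1 control arrays it read 1.28, 1.06, 1.35, 1.25 and 1.23, and on THP-1 TNF arrays from 1.10 to 1.29 with a median of 1.20. The THP-1 difference was -0.05 ± 0.05 with an interval from -0.17 to 0.06.

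RPL22, an RNA-binding protein of the large subunit whose loss blocks the development of alpha-beta T cells in mice, read 0.948, 1.14, 1.14, 0.909 and 0.967 on CaCo-2 control arrays. The CaCo-2 TNF arrays read 1.15, 1.11, 1.19, 1.04 and 0.943. On THP-1 control arrays it read 1.10, 0.996, 1.08, 1.13 and 1.16, and on THP-1 TNF arrays from 0.947 to 1.17 with a median of 1.01. The ranges overlapped in both lines. The difference after TNF was 0.13 ± 0.07 in CaCo-2 (95% interval -0.03 to 0.29) and -0.11 ± 0.05 in THP-1 (95% interval -0.209 to -0.00473), with an unadjusted p of 0.0416 for THP-1 and adjusted p of 1.00 in both.

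Whether the TNF difference itself differed between the lines was tested for 8 members in 1 fit of all 4 groups. None was called, as was 0% of 16931 spots, and RPL22 and RPL7L1 were the 2 members with an unadjusted p under 0.05, against 2.43% of all spots. The difference of differences, CaCo-2 minus THP-1, was 0.24 ± 0.09 for RPL22 (unadjusted p 0.0136) and 0.18 ± 0.08 for RPL7L1 (unadjusted p 0.0267), both with an adjusted p of 1.00. RPL27A 86I05 had the lowest value, -0.08 ± 0.09. With the median of positive spots subtracted in place of quantile normalization, the CaCo-2 differences after TNF were 0.01 for RPL22 and 0.01 for RPL7L1.

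RPL22L1, the paralog of RPL22, differed after TNF by -0.05 ± 0.05 in CaCo-2 and -0.07 ± 0.03 in THP-1 (unadjusted p 0.0622). Its line difference averaged over conditions was 0.03 ± 0.03 with an interval from -0.04 to 0.09. RPL7, the parent of RPL7L1, had no spot among the members. The other lowest values after TNF were those of RPS15A 17L12 and RPS28 in CaCo-2, -0.08 ± 0.04 (unadjusted p 0.0512) and -0.03 ± 0.06. In THP-1, RPL27A 86I05 at 0.06 ± 0.05, RPL34 at 0.02 ± 0.02 and RPS28 at 0.00 ± 0.04 were the ones on the higher side. RPS14 stood at 0.04 ± 0.06 in CaCo-2 and -0.02 ± 0.03 in THP-1, and RPS23 28B16 at 0.00 ± 0.05 and 0.00 ± 0.02.

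**Figure D4:**
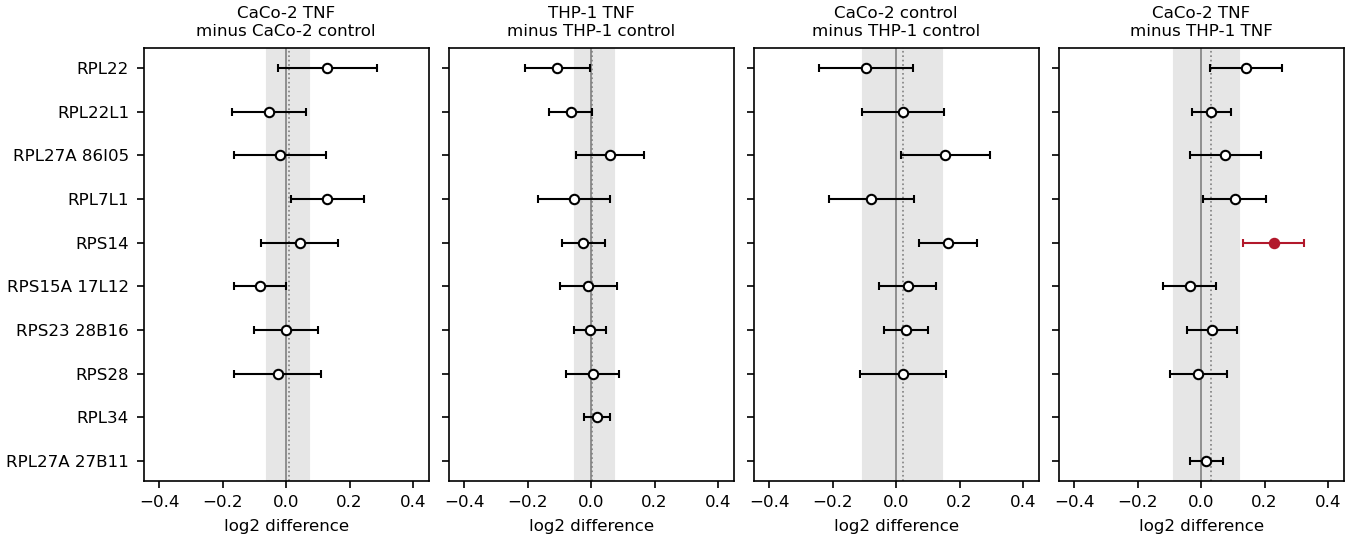
Log2 differences (horizontal axis) of the member spots tested in each of 4 comparisons, with 95% intervals, a filled point for an adjusted p under 0.05, a dotted line at the median of all spots and a grey band from their 5th to their 95th percentile. RPS14 between TNF arrays, at 0.23, is the filled point, and the points of the TNF comparisons lie between -0.11 and 0.13.

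The precision of these comparisons was set by the spread between arrays. The SD of log2 intensity within groups was largest for RPL22 (0.107), RPL27A 86I05 (0.106) and RPS28 (0.0936), and smallest for RPS23 28B16 (0.0618), RPS15A 17L12 (0.0714) and RPL22L1 (0.0733). The median over the 8 spots was 0.0873, against 0.0719 over the spots above 0 on every array. The median SE of a member's TNF difference was 0.0552 in CaCo-2 and 0.0390 in THP-1. The number of arrays limited the precision.

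Genes that make or act with ribosomal proteins were read from 3 lists. Of 51 ribosome biogenesis genes, 32 had a spot, and after TNF none of their tested spots was called in either line. Averaged over conditions, 6 of 30 tested spots were called higher in CaCo-2 and none was called lower, where 17.7% of all spots were called. The median difference was 0.05 against 0.03 over all spots. EIF6, which keeps free 60S subunits from joining 40S, was higher by 0.23 ± 0.04 (adjusted p 0.00169). The other 5 were WDR75 (0.10), BRIX1 (0.09), PES1 (0.08), UTP4 (0.05) and DDX21 (0.05), which act in the early steps of pre-ribosomal RNA processing and 60S assembly.

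Of 20 other genes of the translation machinery and their like whose mRNAs carry a TOP tract, 9 had a spot. None was called after TNF. Averaged over conditions, 4 of 17 tested spots were called higher in CaCo-2 and 2 were called lower, where 17.7% of all spots were called. The initiation factor subunits EIF3F (0.17 ± 0.04, adjusted p 0.00678), EIF3K (0.09), EIF3L (0.08) and EIF3H (0.07) were higher. PABPC1, the poly(A)-binding protein, was lower by 0.21 on the log2 scale (-0.21 ± 0.04, adjusted p 0.00123). The elongation factor EEF1A1 was lower at spot 13O07 (-0.12 ± 0.03, adjusted p 0.00877), while its spot 57J17 stood at 0.31 ± 0.11 (adjusted p 0.0579).

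Of 19 genes of the mTOR and S6 kinase pathway, 15 had a spot. After TNF none was called. Averaged over conditions the median was 0.07, and 10 of 18 tested spots were called higher in CaCo-2 and none lower. They were 2 spots of LARP1 (0.09 and 0.09), 3 spots of the translation repressor EIF4EBP2 (0.07 to 0.08), EIF4EBP1 (0.08), the mTOR activator RHEB (0.08), the mTOR partner MLST8 (0.07), DDIT4 (0.07) and RPS6KA1 (0.06). These counts stand beside the 17.7% of all spots called in that fit, which became 148 spots in place of 2998 without normalization, and the lists as a whole were not tested.

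Some features of the arrays bear on the members. CaCo-2 control replicate 5 and CaCo-2 TNF replicate 6 had an SD of deposited values of 1.38 and highest values of 134.6 and 133.4, whereas the other 19 single columns had SDs of 1.36 and highest values of 142.4 to 145.1. In deposited values the members of these 2 arrays deviated from their group means by -0.19 and -0.24 on the log2 scale, and the spots above 0 on every array by -0.21 and -0.22. Without them RPS14 kept its calls, at 0.25 between TNF arrays (adjusted p 0.0214) and 0.22 averaged (adjusted p 0.000674). Most markers with a spot did not separate the lines by arrays above 0. Of 4 monocyte genes, LAPTM5 was above 0 on 12 of 12 THP-1 and 1 of 10 CaCo-2 arrays, but TYROBP on 11 and 10, PTPRC on 12 and 9 and CSF1R on 11 and 8. The epithelial gene VIL1 was above 0 on 10 of 12 THP-1 and 10 of 10 CaCo-2 arrays, and CLDN4 at spot 59O01 on all arrays of both lines. CLDN4 at spot 79P18 was above 0 on 7 of 12 THP-1 and 10 of 10 CaCo-2 arrays. ELF3, also epithelial, was above 0 on 0 of 12 THP-1 and 8 of 10 CaCo-2 arrays at spot 88A17, but on 11 of 12 and 2 of 10 at spot 85B06. Over 4 monocyte marker spots the summed intensity ranged from 0.901 to 1.31 in THP-1 and from 0.486 to 1.34 in CaCo-2. Over 5 epithelial ones it ranged from 1.33 to 1.79 and from 1.32 to 1.78, and no lymphocyte marker had a spot. In the fit averaged over conditions, 2 of 3 tested epithelial spots were called higher in CaCo-2 and 0 lower. Of 3 tested monocyte spots and 4 tested fibroblast and endothelial spots 0 were called, where 17.7% of all spots were.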

How the data were processed

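Spot intensities on a linear scale were used as deposited by the authors in the series matrix. How the membranes were imaged, background corrected and scaled before deposit is stated in no source used here. Of 33 columns, 11 lay at about 3 times the scale of the rest. For 10 of them a single column carried the same readings, recognised by ratios of at least 1.95 and by shared zeros, and the pair counted once through the single column. In 1 pair the labels oppose each other (CaCo-2 control and TNF), and it was left out. THP-1 control replicate 3, a sum with no partner, was divided by 3. Negative codes were taken as excluded spots, and none fell on a member. Zeros were raised to the lowest positive value, arrays were quantile normalized on the log2 scale, and zero readings were then treated as missing. A spot was tested with at least 3 measured arrays in each group, by limma 3.58.1 in R 4.3.3 (lmFit and eBayes with a variance trend, two-sided, Benjamini-Hochberg over all spots tested, threshold 0.05), a method tested on simulated data. Arrays above 0 were compared by two-sided Fisher's exact tests, a choice made after the data were seen. Intervals are 95%.

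Symbols come from the platform annotation, and all 12 member symbols are in the RefSeq table of GRCh38.p14. The members and lists were chosen with earlier results of these data known. Named in each comparison were members past the threshold, otherwise the 3 of smallest p in each direction, paralogs, members at 0 throughout 1 group and above 0 on at least 3 arrays of another, and the 3 largest and smallest SDs. Other members are named where counts or duplicate spots concern them, chosen after their values were seen.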

Additional observations from a re-analysis of the deposited data

How the results depend on the processing

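Under 17 alternatives to the settings used and 88 fits that left out 1 array, 344 of 366 member counts and medians stayed close to their values, and of 1453 single-member differences 6 lost and 11 gained a call. No called difference changed sign. Without normalization the member medians were 0.0513 for CaCo-2 TNF against control, -0.0511 between controls and 0.0700 for the difference of the TNF effects, and no member was called between TNF arrays (0) or averaged (0). Between controls, 1 member was called with paired columns averaged and 1 with array weights, and 0 to 2 with 1 array left out. Between TNF arrays, 0 were called with 0 kept at the floor, 0 with paired columns averaged, 0 with excluded spots at the floor, 2 with array weights, and 0 to 1 with 1 array left out. Averaged over conditions, 2 were called with 0 kept at the floor, 2 with only spots above 0 on every array, 2 with array weights, 2 with the opposite-label pair added as TNF or 2 as control, 2 with excluded spots at the floor, and 1 to 2 with 1 array left out; the cause was not tested. With 0 kept at the floor, RPL34 was the second member called. Calls over all spots moved more: averaged over conditions from 148 without normalization to 4952 with array weights (2998 as reported), between controls from 0 with medians subtracted to 947 without CaCo-2 control replicate 1 (75), and between TNF arrays from 76 with paired columns averaged to 2150 with array weights (444). With 0 kept at the floor, 15 spots were called after TNF in CaCo-2 and 5 in THP-1, none a member. The settings that added the opposite-label pair, dropped the 2 arrays apart or kept excluded spots at the floor were chosen after seeing the data. Replicate numbers did not pair the arrays: deviations of same-numbered control and TNF arrays correlated between -0.365 and 0.665. With the replicate block 1 member was called between TNF arrays and 1 averaged, with a member median of 0.07 between TNF arrays and 0.03 averaged.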

Other observations

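Arrays of different groups resembled each other in ways the labels do not give. CaCo-2 control replicate 5 and CaCo-2 TNF replicate 6 deviated from their group means together, with a correlation of 0.73 across spots. CaCo-2 control replicate 1 correlated at 0.67 with CaCo-2 TNF replicate 1 and at 0.66 with CaCo-2 TNF replicate 2. Across lines it correlated at 0.48 and 0.46 with THP-1 TNF replicates 2 and 3. CaCo-2 control replicate 4 and CaCo-2 TNF replicate 5 correlated at 0.50. The lowest best match of an array was 0.18, for THP-1 TNF replicate 6. The points of such a correlation are spots of the same membranes and share array-wide scaling.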
